A study of Macaca fascicularis with 10 samples.

Results

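DNMT3A, DNMT3B, TET1 and HELLS are genes that set or remove DNA methylation, and their transcripts were followed over every array of the study. All probe sets annotated with one of these symbols were taken: 2 for DNMT3A, 1 for DNMT3B, 2 for TET1 and 3 for HELLS. They are 4 of the 14132 genes named on the array and 8 of its 52707 probe sets that are not controls. For these genes, probe sets were taken by annotation and not by signal. RNA of cynomolgus monkey cells (Macaca fascicularis) was measured on 10 arrays of the Affymetrix Rhesus Macaque type. Parthenogenetic haploid embryonic stem cells (PG-haESCs), which carry a maternal genome alone and are labelled haploid, gave 5 arrays. Of these, 4 came from a line titled MPH1 (code M1 at passages 8 and 11, code M2 at passages 7 and 9) and 1 from the line MPH2 at passage 4. Diploid embryonic stem cells (ESCs), from blastocysts fertilised by intracytoplasmic sperm injection (ICSI), were represented by 1 array of each of 3 lines, MES1 at passage 12 and MES2 and MES3 at passage 4. Cells labelled female somatic fibroblasts, also diploid, gave 2 arrays under 1 line name, MF, at passages 14 and 15. The growth protocol states that PG-haESCs were kept on feeder cells with Y27635 and Thiazovivin. No label ties arrays of a line to separate cultures, so the spread behind a p-value is that of these arrays and may in part be technical.

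DNMT3A and DNMT3B are the de novo DNA methyltransferases, which place methyl groups on cytosines that carried none. TET1 oxidises methylated cytosine, a step on the way to its removal. HELLS is a chromatin remodelling ATPase that gives methyltransferases access to packed DNA, and in humans loss of HELLS or of DNMT3B causes the same syndrome of immunodeficiency with undermethylated centromeric repeats. All 4 genes are known for high transcript levels in pluripotent cells. The arrays measured transcripts and not methylation.

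Signals are linear MAS5 intensities, with each array scaled to a common mean, and probe sets differ in how brightly they hybridise, so levels were compared between arrays and not between probe sets. Array medians ran from 76.8 to 133. Averages are geometric means with SDs in log2 units. A log2 difference comes from 1 limma model of all 10 arrays that treats arrays of a line as related, so its fold can differ from the ratio of the printed averages. Spike-in controls were brightest on PG-haESC array 2 and ICSI ESC array 1. ICSI ESC array 1 also had the highest summed level of 11 fibroblast and feeder cell markers among ESC arrays, 12.9 in mean log2 signal, against 8.74 to 11.7 on PG-haESC arrays, 8.78 and 10.3 on the other ICSI ESC arrays and 13.01 and 13.02 on the fibroblast arrays.

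All 4 genes were higher in PG-haESCs than on the arrays labelled fibroblast, and higher in ICSI ESCs than on those same arrays (adjusted p under 0.05). This held for all 5 probe sets whose signal was above the array median on fibroblast arrays as well, among them the brightest of each gene. The other 3, 1 of TET1 and 2 of HELLS, were called too, but they entered the test through their ESC signals alone and their calls are no further support. Over all 34140 probe sets tested, 17.0% were called higher in PG-haESCs and 16.5% higher in ICSI ESCs, relative to fibroblast arrays. With those 3 at the lower bounds described for each probe set, the median log2 difference of the 8 probe sets was 4.02 for PG-haESCs and 3.84 for ICSI ESCs (4.34 and 4.18 as fitted), beside medians of -0.09 and -0.06 over all probe sets tested. Between PG-haESCs and ICSI ESCs none of the 8 was called, where 0.451% of all probe sets tested were. The median difference was 0.04, beside -0.02 over all tested, and 5 of the 8 estimates lay above 0. Both fibroblast comparisons use the same 2 fibroblast arrays and are not independent. In bulk RNA, fewer cells with a transcript and less of it per cell cannot be told apart.

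**Figure D1:**
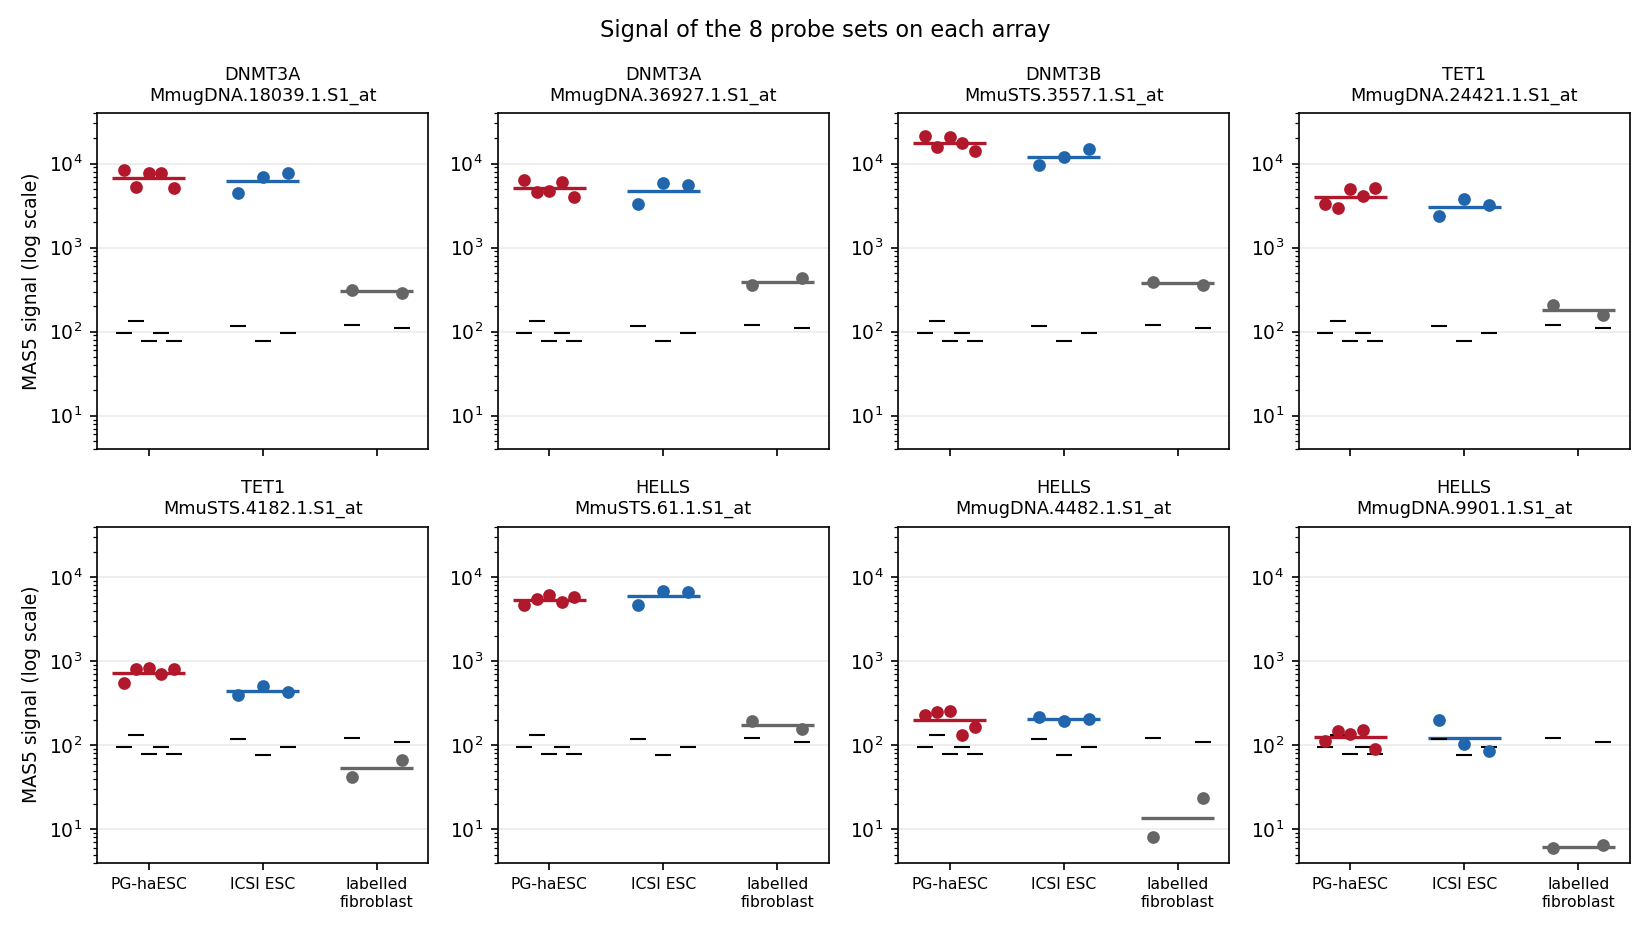
Signal of the 8 probe sets on each array, on a log axis, with PG-haESC arrays left, ICSI ESC arrays in the middle and fibroblast arrays right. Points are arrays, coloured bars are geometric means and short black dashes give each array's median signal. In every panel both fibroblast arrays lie below all 8 ESC arrays, a separation whose share over all probe sets was not computed. For the dimmer TET1 probe set and both dim HELLS probe sets, the fibroblast points lie under their array's median. PG-haESC and ICSI ESC arrays overlap in all panels but that of the dimmer TET1 probe set.

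DNMT3A was high on every ESC array. Its brighter probe set, MmugDNA.18039.1.S1_at, read 8307, 5266, 7818, 7679 and 5109.6 on PG-haESC arrays 1 to 5. ICSI ESC arrays 1 to 3 read 4526, 6992 and 7793, and fibroblast arrays 314 and 291. The lowest ESC array, ICSI ESC 1, was still 14.4 times the higher fibroblast array. PG-haESCs averaged 6692 (SD 0.34, n = 5), ICSI ESCs 6271 (SD 0.41, n = 3) and fibroblast arrays 302 (SD 0.08, n = 2). Relative to fibroblast arrays the gene was 21.3-fold higher in PG-haESCs (log2 4.41 ± 0.30, SE, limma, adjusted p = 7.51e-07) and 20.7-fold higher in ICSI ESCs (4.37 ± 0.31, adjusted p = 9.76e-07). PG-haESC and ICSI ESC arrays overlapped, with a log2 difference of 0.04 ± 0.25 (95% interval -0.50 to 0.58, adjusted p = 0.996). That interval allows a fold of PG-haESC over ICSI ESC anywhere between 0.705 and 1.49. The sign of this small difference turned without ICSI ESC array 1 (-0.17).

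The second DNMT3A probe set, MmugDNA.36927.1.S1_at, read 3993 to 6427 on PG-haESC arrays (median 4741), 3294, 5914 and 5522 on ICSI ESC arrays 1 to 3, and 359 and 432 on fibroblast arrays. It gave the same order, 12.4-fold higher in PG-haESCs and 12.1-fold higher in ICSI ESCs than on fibroblast arrays (log2 3.64 ± 0.30 and 3.59 ± 0.30). Between the ESC groups it differed by 0.04 ± 0.25. Over the 8 ESC arrays the log2 signals of both DNMT3A probe sets had a Pearson r of 0.886, a description of arrays that share lines and scaling. On fibroblast arrays both DNMT3A probe sets stayed above the array median, at 2.59 to 3.92 times it.

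DNMT3B has a single probe set, MmuSTS.3557.1.S1_at, and it was bright on every ESC array. PG-haESC arrays 1 to 5 read 21411, 15843, 20873, 17603 and 13954. ICSI ESC arrays 1 to 3 read 9593, 12022 and 15076, and fibroblast arrays read 389 and 363. PG-haESCs averaged 17704 (SD 0.26, n = 5). ICSI ESCs averaged 12025 (SD 0.33, n = 3), and fibroblast arrays 376 (SD 0.07, n = 2). Relative to fibroblast arrays it was 45.5-fold higher in PG-haESCs (log2 5.51 ± 0.25, limma, adjusted p = 3.55e-08) and 31.99-fold higher in ICSI ESCs (4.9996 ± 0.25, adjusted p = 8.98e-08).

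By estimate DNMT3B was also brighter in PG-haESCs than in ICSI ESCs, although the groups overlapped and the difference was not called. PG-haESC array 5, of the MPH2 line, lay below ICSI ESC array 3, of MES3, while the other 4 PG-haESC arrays lay above all 3 ICSI ESC arrays. The log2 difference was 0.51 ± 0.20, a 1.42-fold excess with a 95% interval of 1.05 to 1.93 that takes no account of the number of probe sets tested (limma, unadjusted p = 0.0282, adjusted p = 0.565). ICSI ESC array 1, whose fibroblast and feeder markers were the highest of the ESC arrays, was also the lowest ESC array for DNMT3B. Without that array the difference was 0.37, and with the fibroblast marker level as a covariate over the 8 ESC arrays it was 0.50. The part of fibroblast or feeder cells in this difference was not tested.

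TET1 was likewise high in both kinds of ESC. Its brighter probe set, MmugDNA.24421.1.S1_at, read 3315, 2943, 5021, 4135 and 5111 on PG-haESC arrays 1 to 5, against 2351, 3781 and 3228 on ICSI ESC arrays 1 to 3, and 208 and 157 on fibroblast arrays. PG-haESC arrays had a mean of 4009 (SD 0.36, n = 5), ICSI ESC arrays one of 3061 (SD 0.35, n = 3) and fibroblast arrays one of 181 (SD 0.28, n = 2). Relative to fibroblast arrays TET1 was 23.0-fold higher in PG-haESCs (log2 4.52 ± 0.32, limma, adjusted p = 9.53e-07) and 16.9-fold higher in ICSI ESCs (4.08 ± 0.32, adjusted p = 2.31e-06). The fibroblast signals were only 1.427 to 1.709 times the array median, so the size of these folds is less certain. The ESC groups overlapped on this probe set, with a difference of 0.44 ± 0.26 (fold 1.36, 95% interval 0.914 to 2.01, adjusted p = 0.846).

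The dimmer TET1 probe set, MmuSTS.4182.1.S1_at, was the only one of the 8 on which PG-haESC and ICSI ESC arrays did not overlap, a separation that 7.32% of all probe sets tested also had. PG-haESC arrays 1 to 5 read 554, 804, 825, 710.1 and 801, and ICSI ESC arrays 1 to 3 read 401, 505 and 431. Every PG-haESC array thus lay above every ICSI ESC array, by a narrow margin between PG-haESC array 1 and ICSI ESC array 2. The difference was 1.67-fold (log2 0.74 ± 0.28, 95% interval 0.13 to 1.35, limma, unadjusted p = 0.0205), and it was not called over the whole table (adjusted p = 0.495). With both TET1 probe sets averaged on the log2 scale the difference was 0.59 (adjusted p = 0.417). Fibroblast arrays read 42.5 and 66.3, both under their array's median, so only a bound is available there: TET1 was at least 6.32-fold higher in PG-haESCs and at least 3.84-fold higher in ICSI ESCs on this probe set.

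HELLS showed no called difference between the ESC groups. Its brightest probe set, MmuSTS.61.1.S1_at, read 4731, 5437, 6128, 5059 and 5883 on PG-haESC arrays 1 to 5, 4685, 6926 and 6760.1 on ICSI ESC arrays 1 to 3, and 195 and 158 on fibroblast arrays. PG-haESCs averaged 5423 (SD 0.15, n = 5), ICSI ESCs 6031 (SD 0.32, n = 3) and fibroblast arrays 175 (SD 0.22, n = 2). All PG-haESC arrays fell inside the range of the ICSI ESC arrays. The difference of PG-haESC minus ICSI ESC was -0.14 ± 0.19 (fold 0.91, 95% interval 0.683 to 1.21, limma, adjusted p = 0.978). Relative to fibroblast arrays HELLS was 31.3-fold higher in PG-haESCs (log2 4.97 ± 0.23, adjusted p = 4.26e-08) and 34.4-fold higher in ICSI ESCs (5.10 ± 0.23, adjusted p = 4.88e-08). On fibroblast arrays this probe set was only 1.431 to 1.605 times the array median, so the size of these folds is less certain.

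The other HELLS probe sets were dim, and at best they bound the change without sizing it. MmugDNA.4482.1.S1_at read 134 to 254 on PG-haESC arrays (median 228), 219, 194 and 206 on ICSI ESC arrays, against 8.06 and 23.3 on fibroblast arrays, far under the array median. It gave at least 1.73-fold higher HELLS in PG-haESCs and at least 1.78-fold higher HELLS in ICSI ESCs. The limma fit to the signals as read, not to these bounds, had adjusted p = 0.000513 and 0.000479. With signals under the array median set to it, the limma adjusted p was 0.187 and 0.14. MmugDNA.9901.1.S1_at read 90.9 to 153 on PG-haESC arrays (median 137), 199, 104 and 86.6 on ICSI ESC arrays, against 5.97 and 6.52 on fibroblast arrays. ESC arrays thus sat at 0.907 to 1.75 times their own array median on this last probe set, ICSI ESC array 3 below it. The ratios that serve as bounds were 1.09 and 1.05, point values with no interval. When signals under the array median were set to that median, both dim HELLS probe sets lost their calls against fibroblast arrays, for PG-haESCs and ICSI ESCs alike. MmugDNA.9901.1.S1_at then gave log2 differences of 0.048 and 0.12 (limma, adjusted p = 0.943 and 0.87), so it shows no clear bound above 1. Over the ESC arrays the brightest HELLS probe set had r of 0.031 and -0.675 with the dim ones (8 arrays, a description), so the dim ones did not follow it from array to array.

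**Figure D2:**
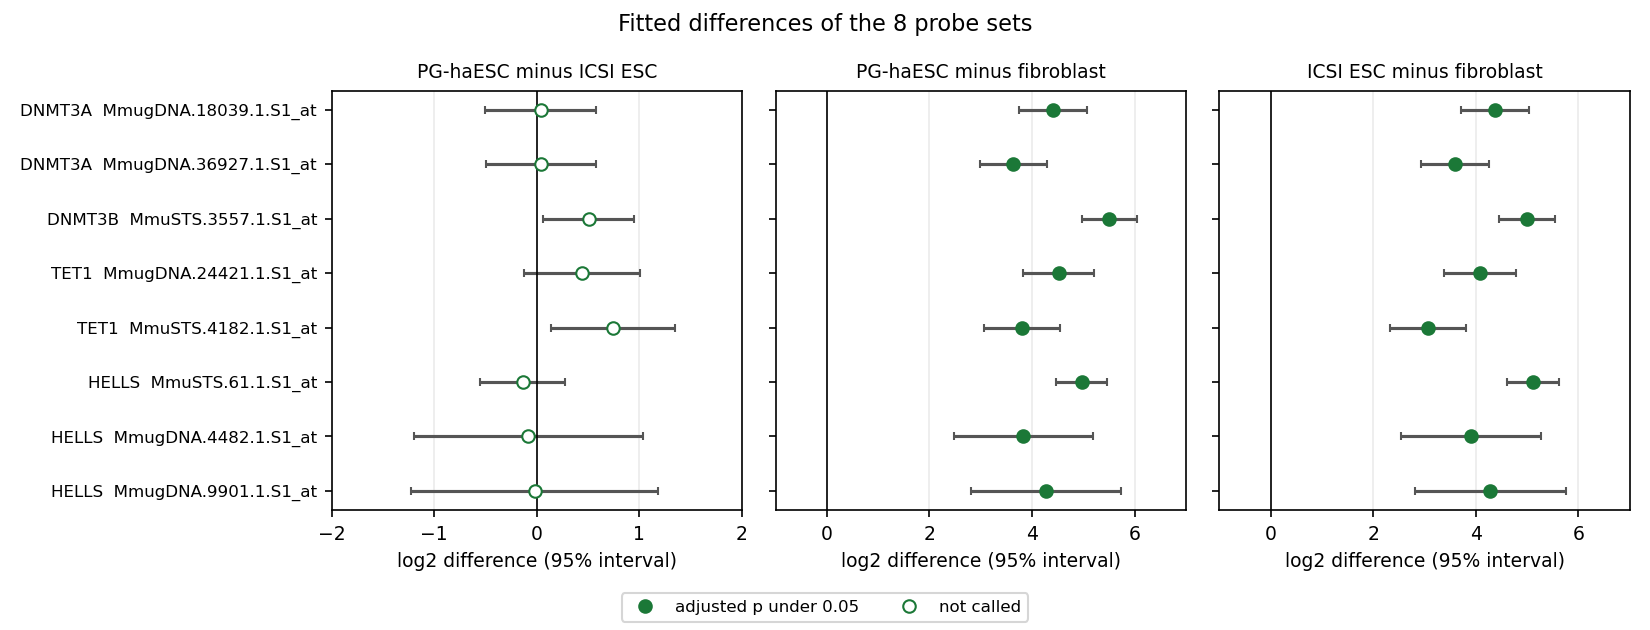
Fitted log2 differences of the 8 probe sets with 95% intervals, for PG-haESC minus ICSI ESC, PG-haESC minus fibroblast and ICSI ESC minus fibroblast. Filled points were called at an adjusted p under 0.05. All differences from fibroblast arrays are filled and above 3, and all PG-haESC minus ICSI ESC differences are open, with DNMT3B and the dimmer TET1 probe set farthest above 0.

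By cell line, the order of the levels differed from gene to gene. DNMT3B was highest in MPH1 (18789, geometric mean of 4 arrays), followed by MES3 (15076), MPH2 (13954), MES2 (12022) and MES1 (9593). For DNMT3A the order was MES3 (7793), MPH1 (7159), MES2 (6992), MPH2 (5109.6) and MES1 (4526) on the brighter probe set. PG-haESC and ICSI ESC lines were thus interleaved for both methyltransferases. TET1 was highest in MPH2 on both probe sets, at 5111 and 801. MES1 came last for all 4 genes on their brightest probe sets, including HELLS at 4685, where MES2 read 6926. All lines but MPH1 have 1 ESC array each, so neighbours in these orders have no test between them.

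Within MPH1, the arrays with the code M2 read higher than those with the code M1 on average for the brightest probe set of each gene. The second DNMT3A probe set did not follow, with 5363 for M2 and 5403 for M1, and neither did HELLS probe set MmugDNA.4482.1.S1_at, with 184 and 238. TET1 showed the widest step on its brighter probe set, with 4556 for M2 (2 arrays) against 3124 for M1 (2 arrays). DNMT3B averaged 19169 and 18418 under M2 and M1, DNMT3A 7749 and 6614, and HELLS 5568 and 5072. Single arrays did not follow these averages. PG-haESC array 1, of M1, read above both M2 arrays for DNMT3A (8307 against 7818 and 7679) and DNMT3B (21411 against 20873 and 17603). PG-haESC array 2, the other M1 array, read below them for both genes, at 5266 and 15843. For HELLS it lay between the M2 arrays. With 2 arrays each these are values with no test. Over all 8 ESC arrays the highest and lowest signal of a probe set differed 1.48-fold for the brightest HELLS probe set and up to 2.30-fold for its dimmest.

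**Figure D3:**
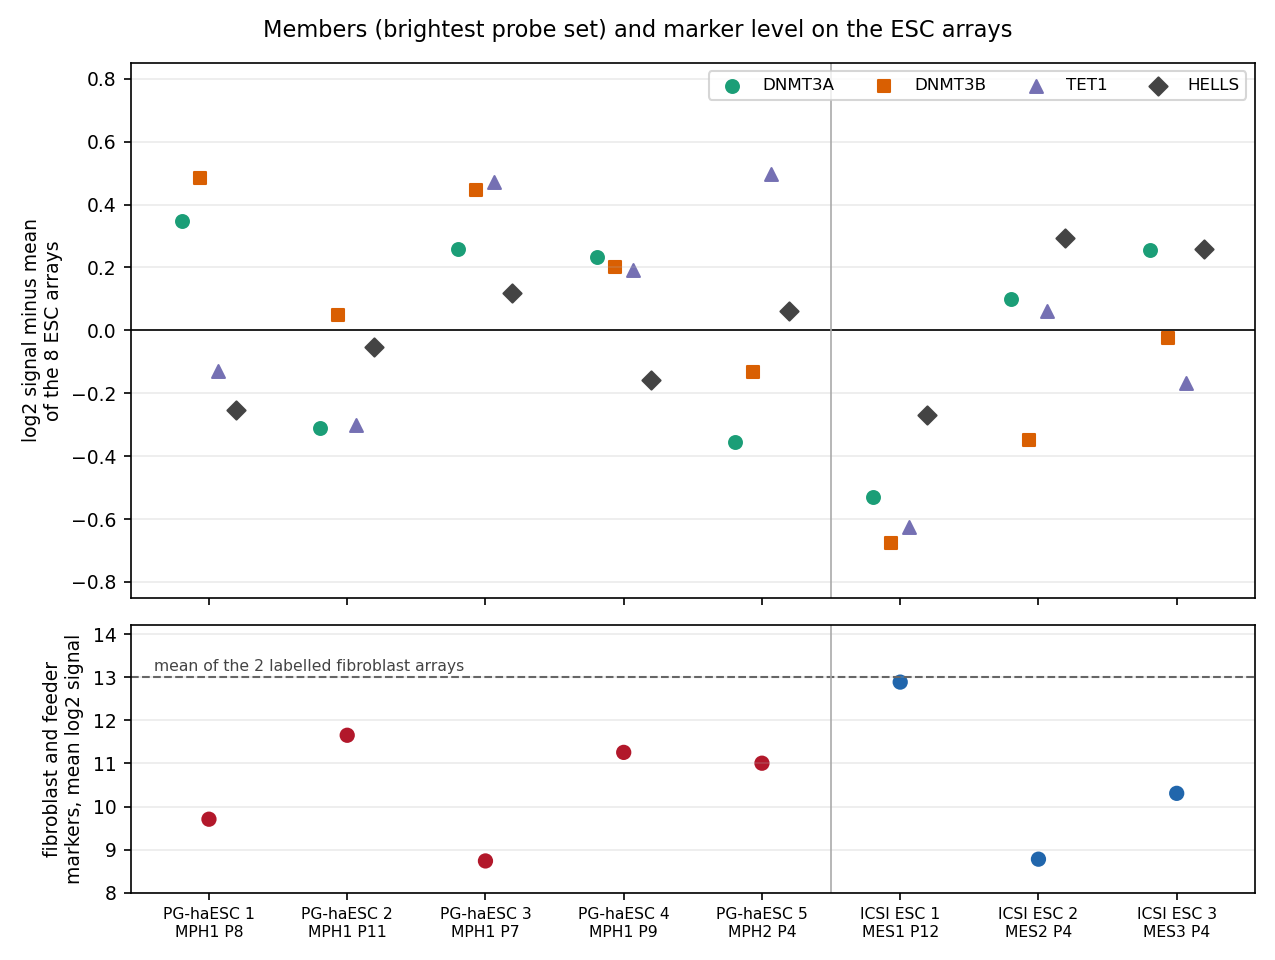
Deviation of each ESC array from the mean of the 8 ESC arrays, in log2 units, for the brightest probe set of DNMT3A, DNMT3B, TET1 and HELLS. PG-haESC arrays stand left of ICSI ESC arrays, and ICSI ESC array 1 is the lowest array of all 4 genes, at -0.53, -0.68, -0.62 and -0.27.

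The arrays labelled fibroblast differ from the ESC arrays in more than these genes. Of 8 pluripotency markers measured, POU5F1, SOX2, LIN28B, DPPA4, ZFP42 and PRDM14 were at or under the array median on both fibroblast arrays. In each ESC group 7 of the 8 were called higher, beside 23.0% and 22.5% of all genes tested in PG-haESCs and ICSI ESCs. The 6 named genes entered the test through their ESC signals alone, so their calls are no further support. NANOG was the exception, at 1107 to 2342 on PG-haESC arrays, 1355 to 2434 on ICSI ESC arrays and 2083 and 1904 on fibroblast arrays. The summed pluripotency level was 11.7 to 12.4 in mean log2 signal on PG-haESC arrays, 11.5 to 12.1 on ICSI ESC arrays and 5.54 and 6.37 on fibroblast arrays. Epidermal markers went the other way, with 9 of 9 measured genes lower in both ESC groups, beside 17.2% and 17.0% of all genes tested. Of these, 7 were at or under the array median on all ESC arrays. They entered the test through the fibroblast arrays alone, so their calls are no further support. Summed epidermal levels were 4.42 to 5.93 on PG-haESC arrays, 5.07 to 5.81 on ICSI ESC arrays and 14.6 on both fibroblast arrays. KRT1, a keratin of the epidermis, read 53895 and 53774 on the fibroblast arrays, whose label thus covers cells with a strong epidermal signal. Of 11 fibroblast and feeder cell markers, COL1A1, COL1A2, COL3A1, DCN, LUM and S100A4 were brighter on both fibroblast arrays than on any ESC array, and the other 5, among them THY1, TWIST1 and VIM, were not. Of the 11, 1 was called lower in PG-haESCs and 2 in ICSI ESCs, beside the same 17.2% and 17.0% of all genes.

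Cell cycle genes rose together with the methylation genes. Of 14 S phase genes measured, 12 were called higher in PG-haESCs and 12 in ICSI ESCs than on fibroblast arrays, and of 9 genes of G2 and M phase all 9 were called in each comparison. Over all genes tested, 23.0% were called higher in PG-haESCs and 22.5% in ICSI ESCs. Summed S phase levels were 11.2 to 11.4 on PG-haESC arrays, 11.2 to 11.5 on ICSI ESC arrays and 8.91 and 9.08 on fibroblast arrays. The part that cell division, pluripotency or the epidermal cells have in the differences of DNMT3A, DNMT3B, TET1 and HELLS was not tested. None of these marker genes was called between PG-haESCs and ICSI ESCs. Endoderm and trophoblast markers were not called between them either, but the estimates lay apart. The median log2 difference was -1.61 for 8 endoderm markers and 1.52 for 5 trophoblast markers. Summed endoderm levels were 7.31 to 10.1 on PG-haESC arrays and 9.36 to 10.6 on ICSI ESC arrays. The part of such cells in the differences between the ESC groups was not tested.

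Other genes of the methylation machinery were called in both directions against fibroblast arrays, at shares not far from those of all genes. Of 42 listed genes 29 were measured, and 8 (27.6%) were called higher and 7 (24.1%) lower in PG-haESCs, beside 23.0% and 17.2% of all 11676 genes tested. In ICSI ESCs 7 (24.1%) were higher and 6 (20.7%) lower, beside 22.5% and 17.0% of all genes. The list's median log2 difference was 0.11 in PG-haESCs and 0.19 in ICSI ESCs, beside 0.06 and 0.08 over all genes. Between PG-haESCs and ICSI ESCs none of the 29 was called, where 0.574% of all genes were, and 2 had an unadjusted limma p under 0.05. These were TET2 (0.63 ± 0.26, adjusted p = 0.593) and the stress-response gene GADD45A (-0.39 ± 0.16, adjusted p = 0.586). Other GADD45A probe sets gave -0.935 (adjusted p = 0.0974) and -0.331 (adjusted p = 0.893). A second, dimmer TET2 probe set gave 1.37 (adjusted p = 0.826).

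Maintenance methylation, which copies methyl marks to the new DNA strand, had 4 measured genes, of which 3 rose and 1 fell in each ESC group. DNMT1, the maintenance methyltransferase, fell on its single probe set, with no other to compare. That probe set read 219, 317, 211, 267 and 261 on PG-haESC arrays 1 to 5. ICSI ESC arrays 1 to 3 read 662, 118 and 182, and fibroblast arrays 982 and 925. The signal was 3.76-fold lower in PG-haESCs (log2 -1.91 ± 0.60, limma, adjusted p = 0.0266) and 3.94-fold lower in ICSI ESCs (-1.98 ± 0.60, adjusted p = 0.0238). ICSI ESC array 1 stood nearest to the fibroblast arrays. Both calls were lost when either fibroblast array was left out (adjusted p 0.0687 to 0.0866), and that in ICSI ESCs also without ICSI ESC array 2 or 3 (0.0626 and 0.0682). Without ICSI ESC array 1 the difference in ICSI ESCs was larger, at -2.70 (adjusted p = 9.65e-05). Averaging arrays per line, or a fit with no variance trend, also ended both calls (adjusted p 0.0503 to 0.181). UHRF1, which brings DNMT1 to newly copied DNA, moved the opposite way. Its signal was 4182 to 7218 on PG-haESC arrays (median 4666), 4481, 4469.7 and 3820 on ICSI ESC arrays, against 369 and 239 on fibroblast arrays. The rise was 16.7-fold in PG-haESCs (adjusted p = 1.1e-06) and 14.3-fold in ICSI ESCs (adjusted p = 1.94e-06). PCNA, the replication clamp, was 6.07-fold and 6.27-fold higher in PG-haESCs and ICSI ESCs, and the DNMT1-associated protein gene DMAP1 2.49-fold and 2.13-fold.

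DNMT3L, the cofactor of the de novo enzymes in germ cells, lay under the array median on all 10 arrays (6.35 to 72.5) and was not tested. The partners of HELLS showed no call on their brightest probe sets. CDCA7L had log2 differences of 0.08 ± 0.26 in PG-haESCs and 0.42 ± 0.26 in ICSI ESCs, and ZBTB24, a zinc finger gene tied to the same human syndrome as HELLS, had -0.35 ± 0.33 and -0.23 ± 0.34. The second CDCA7L probe set was called higher in ICSI ESCs (0.64, adjusted p = 0.0368) and not in PG-haESCs (0.53, adjusted p = 0.0747). A second, dim ZBTB24 probe set pointed the other way (2.50 and 2.93, not called).

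The TET genes did not move as one against fibroblast arrays. TET2, a relative of TET1 with the same oxidising activity, fell: PG-haESC arrays read 297 to 457 (median 347), ICSI ESC arrays 324, 238 and 170.2, and fibroblast arrays 2955 and 2856. It was 7.96-fold lower in PG-haESCs (log2 -2.99 ± 0.32, limma, adjusted p = 2.22e-05) and 12.3-fold lower in ICSI ESCs (-3.62 ± 0.32, adjusted p = 5.72e-06). A second TET2 probe set was lower too, called in ICSI ESCs (-3.83, adjusted p = 0.0083) and not in PG-haESCs (-2.46, adjusted p = 0.0648). TET3, the other family member, was not called, at -0.31 ± 0.24 in PG-haESCs and -0.26 ± 0.24 in ICSI ESCs, which turned to 0.02 in each when arrays were centred on their medians. High TET1 thus stood beside low TET2 on every ESC array, relative to both fibroblast arrays.

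Readers of methylated DNA had 4 measured genes. On their brightest probe sets MBD2, ZBTB33, ZBTB4 and ZBTB38 fell in PG-haESCs, and the first 3 of these in ICSI ESCs, relative to fibroblast arrays. ZBTB38 was barely called (-1.26 ± 0.45, limma, adjusted p = 0.049), and 1 of its other probe sets gave 0.112. ZBTB33 was 5.44-fold and 7.57-fold lower (adjusted p = 0.018 and 0.00714). It read 2818 on ICSI ESC array 1, against 415 and 702 on the other ICSI ESC arrays. ZBTB4 was 5.01-fold lower in PG-haESCs and 4.96-fold lower in ICSI ESCs (adjusted p = 0.000217 and 0.000251). The mean of its 3 probe sets gave smaller log2 differences, -1.587 in PG-haESCs and -1.501 in ICSI ESCs. MBD2 was 7.30-fold and 6.12-fold lower on its brightest probe set, on which ICSI ESC array 1 read 2831, against 379 to 1035 in PG-haESCs and 348 and 530.0 on the other ICSI ESC arrays. Its 3 probe sets disagreed: a second was lower, and the remaining one read 1844 to 2533 on PG-haESC arrays, 1985 to 2618 on ICSI ESC arrays and 5.62 and 11.8 on fibroblast arrays. No direction is therefore given for MBD2 as a gene.

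Among the remaining roles, TRIM28, a corepressor that protects methylated imprints, was 4.84-fold higher in PG-haESCs (limma, adjusted p = 8.46e-06) and 5.21-fold higher in ICSI ESCs (adjusted p = 6.72e-06). AHCY, which clears the by-product of methyl transfer, was 5.37-fold and 5.80-fold higher. The histone methyltransferase gene EHMT2 was 2.37-fold and 2.31-fold higher, while the histone demethylase gene KDM1B was 3.45-fold and 4.73-fold lower. EHMT2 lost both calls when its 2 probe sets were averaged, and KDM1B that in PG-haESCs when arrays were averaged per line (adjusted p = 0.0611). The mean of the 3 KDM1B probe sets gave -1.66 in ICSI ESCs, against -2.24 for the brightest.

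**Figure D4:**
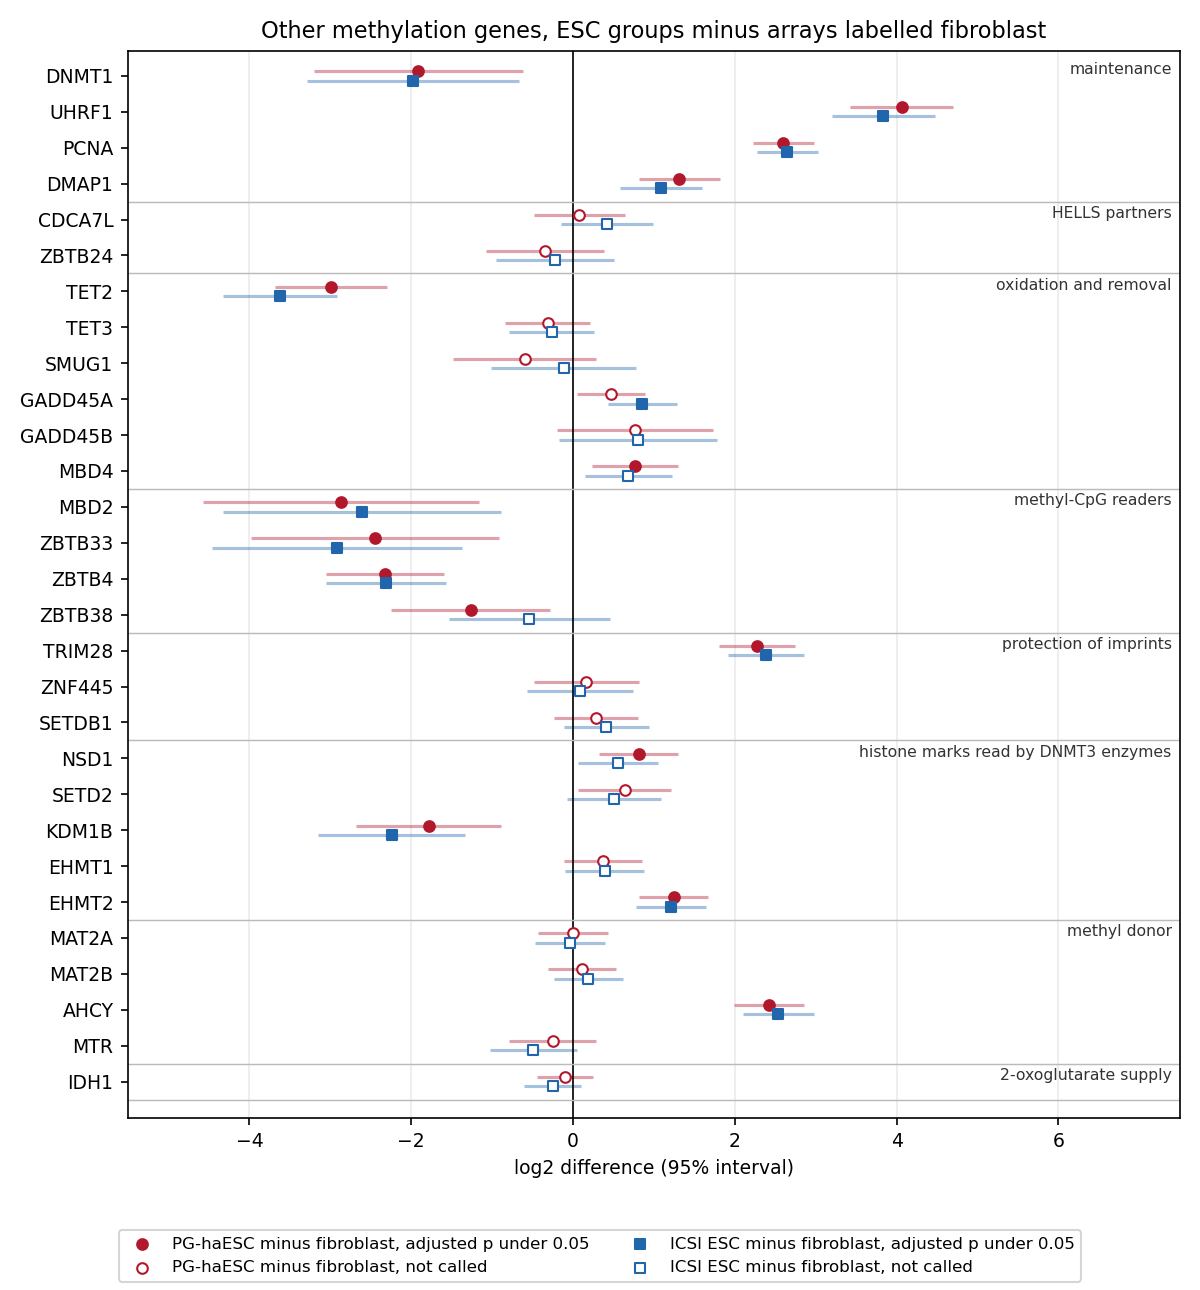
Log2 differences with 95% intervals of the 29 measured genes of the methylation machinery, grouped by role, for PG-haESC minus fibroblast (circles) and ICSI ESC minus fibroblast (squares). Filled marks were called, with UHRF1 highest at 4.06 and 3.84 and TET2 at -2.99 and -3.62.

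The scaling of the arrays bears on the size of these differences and on the split of all calls. Centring each array on its median moved the median difference of all probe sets tested to 0.24 in PG-haESCs and 0.23 in ICSI ESCs relative to fibroblast arrays, against -0.09 and -0.06 without it. The share of calls that were higher was then 63.7% and 61.6%, against 51.4% and 50.5%. Between PG-haESCs and ICSI ESCs it was 21.4% of 14 calls with centring, against 81.2% of 154 without. DNMT3B stood at 5.85 and 5.28 after centring and HELLS at 5.29 and 5.39. The 5 probe sets with fibroblast signals above the array median stayed called against fibroblast arrays. The 3 with fibroblast signals under it stayed called too, but centring keeps those dim signals as read, so their calls are no further support.

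The genes whose signal followed each of the 4 most closely are given as a description. Over all 10 arrays, which split into ESC and fibroblast arrays and so give high values to many genes, DNMT3A was nearest to RRAS2 (Pearson r 0.999), TRIM37 (0.998) and LOC714349 (0.998). DNMT3B was nearest to CTBP2, SRSF9 and TMEFF1 (each 0.997), and TET1 to CIAPIN1 (0.997), GINS2 (0.996) and TXNL4A (0.995). HELLS was nearest to NUDCD2 (0.998) and to KIF2C and CENPM (each 0.997), which encode a mitotic motor and a centromere protein. Over the 8 ESC arrays alone the nearest genes were others. DNMT3A was nearest to HK2 (0.982), ARPP19 (0.977) and ETF1 (0.974), and DNMT3B to LOC701346 (0.974), KDM5C (0.969) and GLOD5 (0.968). TET1 was nearest to RPIA (0.985), PPA2 (0.983) and OIP5 (0.973), and HELLS to LPCAT3 (0.972), TRRAP (0.952) and CFAP52 (0.934). Among the 4 genes themselves, DNMT3B had r of 0.726 with DNMT3A, 0.484 with TET1 and -0.066 with HELLS over the ESC arrays, on their brightest probe sets.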

How the data were processed

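Total RNA of 10 samples was prepared with TRIZOL and labelled by the GeneChip 3' IVT Express kit, per the labels' protocols. The authors used MAS5, per the submitters' processing notes, and deposited its signal as a linear intensity. Version and target signal are not given in the sources used here. Trimmed of 2% of probe sets at each end, the arrays had means of 500.03 to 500.04, so arrays had been scaled alike. The table has no detection calls, so the array median served as the mark of a dim signal.

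After 158 control probe sets were left out, 34140 probe sets above their array's median on at least 2 arrays were tested. Symbols came from the platform annotation: 24956 probe sets had 1 symbol, 361 several and 27390 none. Log2 signals were fitted with limma 3.58.1 in R 4.3.3 in 1 model of the 3 groups, with the line given in the titles as a random block (correlation 0.286), a variance trend and two-sided tests. Benjamini-Hochberg adjustment ran over the 34140 tests of a comparison, with calls at an adjusted p under 0.05. A gene was represented by its brightest tested probe set. Where no array of the dimmer group exceeded its own median, that median replaced the signal and the fold is given as "at least", a point value with no interval.

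The members, lists and tests were chosen with earlier results of these data known. Named were all member probe sets, 10 partner genes (DNMT1, UHRF1, DNMT3L, CDCA7, ZBTB24, TET2, TET3, TDG, ZFP57 and TRIM28) where measured, up to 6 further partners of smallest p per fibroblast comparison, and the 3 nearest genes by correlation. Other partners and markers were named after their values were seen. No probe set was annotated with CDCA7, TDG or ZFP57 in the table used here. Protein and promoter sequences were not analysed here. Titles name 1 line, MPH1, for the codes M1 and M2, and the code was used as the block in an alternative. The number of arrays limits the precision. The method was tested on simulated data, where many true changes were missed. Calls were made for 22% of 2-fold and 55% of 4-fold changes simulated for PG-haESC minus ICSI ESC. For PG-haESC minus fibroblast the shares were 6% and 41%, and for ICSI ESC minus fibroblast 11% and 32%. False calls numbered 8, 4 and 4 in these comparisons. Each simulation held 100 changes of 2-fold and 100 of 4-fold among 34140 probe sets, whereas 11275 and 11150 were called in the real fibroblast comparisons. With many more changes the adjusted threshold is less strict, so the simulated shares do not describe the fibroblast comparisons. A missing call thus does not show that levels were equal.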

Additional observations from a re-analysis of the deposited data

How the results depend on the processing

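None of the 8 probe sets of DNMT3A, DNMT3B, TET1 and HELLS was called between PG-haESCs and ICSI ESCs under any of the 25 alternatives run. In each ESC group 6 to 8 were called higher than on fibroblast arrays (23 alternatives for PG-haESCs, 22 for ICSI ESCs). Among the 8, the calls of the 3 with fibroblast signals under the array median are no further support. The lower count came with signals under the array median set to it, where the dim HELLS probe sets lost their calls, and with a 75th percentile filter, where they were not tested. For PG-haESC minus ICSI ESC, DNMT3B ran from 0.37 to 0.67, the brighter TET1 probe set from 0.22 to 0.59 and the dimmer from 0.63 to 0.83, with none called. Differences near 0 turned sign, in log2 units. The brighter DNMT3A probe set gave -0.052 with arrays averaged per line, -0.11 without both arrays of highest spike-in signal, and -0.17 to 0.19 without single arrays. The other DNMT3A probe set gave -0.037, -0.18, and -0.20 to 0.20 under these. HELLS probe set MmugDNA.4482.1.S1_at ran from -0.16 to 0.049 without single arrays. MmugDNA.9901.1.S1_at gave 0.049 with independent arrays, 0.017 with the code as block, 0.013 with quantile normalization, 0.040 with centring, 0.30 without the spike-in arrays, 0.0071 with the fibroblast marker covariate, and -0.26 to 0.37 without single arrays. Against fibroblast arrays, TET3 turned to 0.024 in PG-haESCs and 0.021 in ICSI ESCs with centring, and to 0.22 in PG-haESCs and 0.40 in ICSI ESCs as the mean of its probe sets. ZBTB24 turned to 0.057 in ICSI ESCs with centring, and to 1.09 in PG-haESCs and 1.35 in ICSI ESCs as the mean. Partner genes called in PG-haESCs numbered 15, and 8 with arrays averaged per line, which leaves fewer samples. Over the whole table the calls between PG-haESCs and ICSI ESCs ran from 8 (without ICSI ESC array 3) to 475 (arrays as independent samples), against 154. For PG-haESCs and fibroblast arrays there were 11275 calls, and 6294 with arrays averaged per line. The spike-in and marker covariate alternatives were added after seeing the data. A model of ICSI ESC and fibroblast arrays alone, with the line as block, could not be fitted. No paired analysis was possible because the numbers in the titles name lines in PG-haESCs and ICSI ESCs and arrays of 1 line in fibroblasts, so that equal numbers do not mark shared samples.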
